A study of Rattus norvegicus with 10 samples.

Results

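The untreated baseline of JUG2 cells, an enteric glial cell (EGC) line made from a primary culture of the rat enteric nervous system, is given by 4 of the 10 arrays of the series. By their labels these are replicates 2, 3 and 4 of SOX10 -dox and replicate 1 of GFP -dox. Of the 5 arrays labelled untreated, SOX10 -dox replicate 1 was kept apart because its Sox10 signal ran against its label. Each Clariom S array, a chip with a probe set for most rat transcripts, was hybridized with material from 100 ng total RNA, and the deposited values are the authors' normalized log2 signals.

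All cells carried lentiviral vectors. The SOX10 line had received a doxycycline-dependent Sox10 vector and the GFP line a doxycycline-dependent EmGFP vector, and both held the Tet3G transactivator, driven by the EF1a promoter. The lines are transduced cultures, and nothing says that they are single clones. Untreated (-dox) cells received no doxycycline, while the +dox cells had 1 µg/ml for 48 h. The methods speak of independent experiments, but the GFP line has 1 array per condition, so that the spread of the GFP line itself was not measured. P-values measure only the spread between these arrays.

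Enteric glia are the glial cells of the gut wall. They descend from the neural crest and surround the neurons of the myenteric and submucosal plexus, which they supply with metabolites and growth factors. In tissue they are recognized by the intermediate filament GFAP, the calcium-binding protein S100B and the transcription factor SOX10, which directs the glial fate of crest cells. Cultured glia can lose these markers.

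The file holds 23188 transcript clusters, of which 15049 carry 1 gene symbol, together 15037 genes. Probe sets differ in how strongly they bind their transcript, so the signal of one gene says nothing of its amount relative to another gene. Each signal was therefore set against a background limit of its own array, the 95th percentile of 1204 transcript clusters of olfactory, vomeronasal and taste receptor genes and trace amine receptors. The limits were 6.45, 6.52, 6.58 and 6.59 (log2) on SOX10 -dox replicates 2, 3 and 4 and GFP -dox, the order in which 4 values are given from here on. A gene was called above background when it passed the limit on all 4 arrays, high when it passed it by at least 3 (log2, 8 times the signal) on all 4, and at background when it passed it on none.

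By this measure 7854 of 15037 genes (52.2%) were above background, and 4052 were high. Between 12062 and 12189 transcript clusters passed the limit on each array. A gene at background is one not detectable here, which is not the same as absent. The limits of the call show in a list of genes typical of other tissues, where 5 of 22 were above background and the protamine Prm2 and the myosin light chain Myl2 were high.

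The markers that define enteric glia in tissue were at background. Sox10 gave 6.39, 6.11, 6.43 and 5.70, Gfap 5.45, 5.63, 5.81 and 5.78, and S100b 5.20, 5.78, 5.59 and 5.09. None of these values passed the limit of its array, and the lines overlapped for Gfap but not for Sox10 or S100b, whose lowest value was that of GFP -dox. The neuregulin receptor gene Erbb3 passed the limit on SOX10 -dox replicate 3 only (5.34, 6.81, 6.37 and 6.49). Ngfr, the p75 neurotrophin receptor of crest cells, passed it on SOX10 -dox replicates 2 and 4 (6.60, 6.14, 6.72 and 6.09). These probe sets thus did not detect the defining markers in the untreated cells, while some other genes of glia and progenitors were above background. In each list of glia, neural crest and SOX10 target genes below, however, the share above background was under the 52.2% of all genes. Of the 22 genes typical of other tissues, 5 were above background too, and whether the glial lists exceed that was not tested. The counts of these lists are therefore not read by themselves as a glial state.

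**Figure D1:**
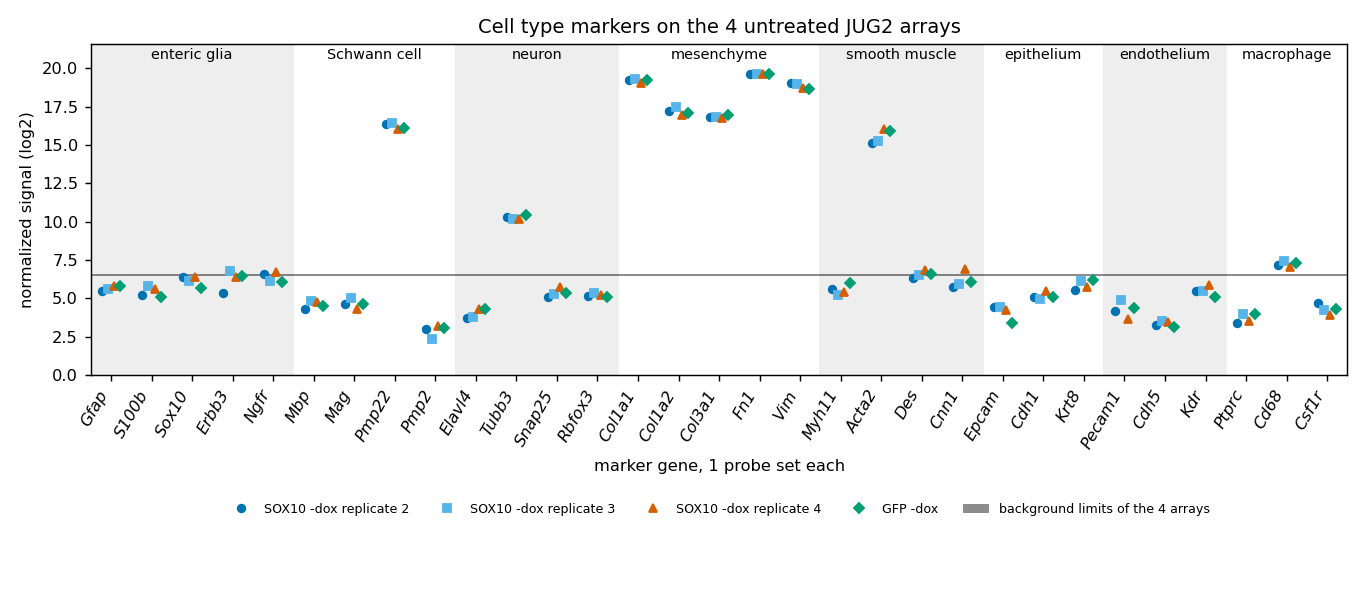
Normalized log2 signal (y axis) of cell type markers (x axis, 1 probe set per gene, grouped by cell type) on the 4 untreated arrays, each array with its own symbol. The dark line marks the background limits of 6.45 to 6.59: the matrix genes lie between 16.80 and 19.64 and the Gfap, S100b and Sox10 points below the line.

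Of 22 enteric glial genes measured, 7 were above background, 12 were at background and 3 passed the limit on some arrays. The high members were Vim, an intermediate filament gene of many cultured cells (19.02, 18.96, 18.75 and 18.67), the small heat shock protein gene Cryab (15.25, 15.10, 14.94 and 14.85) and Gja1, which encodes the gap junction protein connexin 43 (14.89, 14.97, 14.89 and 14.64). All 3 are shared with other cell types. Entpd2, an ectonucleotidase on the surface of glia, was above background at 9.37, 9.36, 10.43 and 10.25. Its value on SOX10 -dox replicate 4 was at least 2-fold over those of replicates 2 and 3, with GFP -dox between them.

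The stem cell factor Sox2 and Nes, the intermediate filament nestin of progenitors, passed the limit by little. Sox2 gave 7.88, 7.69, 7.33 and 7.52, and Nes 6.88, 6.71, 6.91 and 6.97. The 4 arrays lay close together for both genes, and the lines overlapped for Sox2, whereas GFP -dox was highest for Nes by less than the range of the SOX10 -dox arrays. The lipid carrier gene Apoe also passed it on all 4 (7.45, 7.31, 8.07 and 8.48).

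Myelin genes were divided. Of 25 Schwann cell and myelin genes, 7 were above background and 17 at background, among them the myelin basic protein gene Mbp (4.31, 4.80, 4.74 and 4.48), the adhesion molecule gene Mag (4.63, 5.04, 4.29 and 4.64) and the lipid-binding Pmp2 (3.02, 2.37, 3.22 and 3.06). The high members were Pmp22 (16.40, 16.47, 16.05 and 16.11), Ncam1 (16.77, 16.84, 17.75 and 17.68), Cadm4 (13.11, 13.08, 13.61 and 13.59) and Cnp (10.99, 10.88, 11.24 and 11.38). Pmp22 encodes a membrane protein of compact myelin that other cells make too, Ncam1 and Cadm4 encode adhesion molecules, and Cnp encodes an enzyme of non-compact myelin.

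Prx, the gene of the Schwann cell protein periaxin, was above background at 8.89, 8.99, 9.44 and 9.12. Egr2, the transcription factor of myelinating Schwann cells, stood at 7.35, 7.76, 8.17 and 7.91. Neither separated the lines, since the GFP -dox value lay inside the range of the SOX10 -dox arrays for both.

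Among 20 oligodendrocyte genes, 6 were above background and 12 at background. Olig1 and Olig2, the transcription factors of that lineage, were at background on all 4 arrays, with values between 3.83 and 4.55 for both together. The myelin regulatory factor gene Myrf was high (11.63, 11.46, 10.65 and 10.62), as was Pdgfra, a growth factor receptor of oligodendrocyte progenitors and also of mesenchyme (9.97, 10.07, 10.71 and 10.98). In both, replicates 2 and 3 stood together on one side and replicate 4 and GFP -dox on the other. Of 17 astrocyte genes 7 were above background, among them Gja1 and Glul, the glutamine synthetase gene (11.69, 11.64, 12.03 and 12.02), while the water channel gene Aqp4 was at background (5.08, 5.25, 5.57 and 5.33).

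A list of 20 genes known as SOX10 targets in glia held 5 above background and 13 at background. The phospholipase gene Enpp2 gave at most 3.88 (SOX10 -dox replicate 2), the lipocalin gene Apod 2.81, 2.93, 3.19 and 3.63, and the transcription factor gene Sox6 5.77, 5.73, 6.14 and 6.19. These and S100b were the 4 of the 13 that passed the limit on all 3 SOX10 +dox arrays of replicates 2 to 4, where Enpp2 stood at 12.19, 12.31 and 11.26. Over all genes at background in the untreated cells, 37 of 6179 (0.599%) did so, but the list was drawn up from known SOX10 targets and with earlier results of these data in view.

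Neural crest genes gave a mixed picture. Of 18 crest and enteric progenitor genes, 6 were above background, and the high ones were the transcription factor genes Snai2 (14.65, 14.36, 14.40 and 14.55), Zeb2 (14.35, 14.09, 14.90 and 14.71) and Tfap2a (12.09, 11.52, 11.44 and 11.44) and the N-cadherin gene Cdh2 (14.62, 14.44, 14.22 and 14.16). Snai2 and Zeb2 act in migrating crest cells and in mesenchyme alike. Ret, the receptor tyrosine kinase of enteric progenitors, was at background at 5.57, 5.65, 5.72 and 5.56, and so was Phox2a, a transcription factor of enteric neurons (3.62, 3.46, 3.52 and 3.69).

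Neuronal genes were mostly at background. Of 21 pan-neuronal genes, 13 were at background and 4 above it, with Uchl1, a ubiquitin hydrolase gene (11.94, 11.67, 10.73 and 10.81), and the tubulin gene Tubb3 (10.28, 10.20, 10.21 and 10.41) high. The RNA-binding Elavl4 (3.74, 3.79, 4.29 and 4.31), the synaptic Snap25 (5.10, 5.30, 5.76 and 5.34) and the nuclear Rbfox3 (5.13, 5.37, 5.19 and 5.10) were not detectable. Of 22 transmitter and neuropeptide genes of enteric neurons 20 were at background, among them Chat, which makes acetylcholine (4.30, 4.09, 3.77 and 4.13), and Nos1, which makes nitric oxide (5.13, 4.78, 4.79 and 3.97). The exceptions were the decarboxylase gene Ddc and the peptide gene Cck, with lowest margins over the limit of 0.2 and 0.9.

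**Figure D2:**
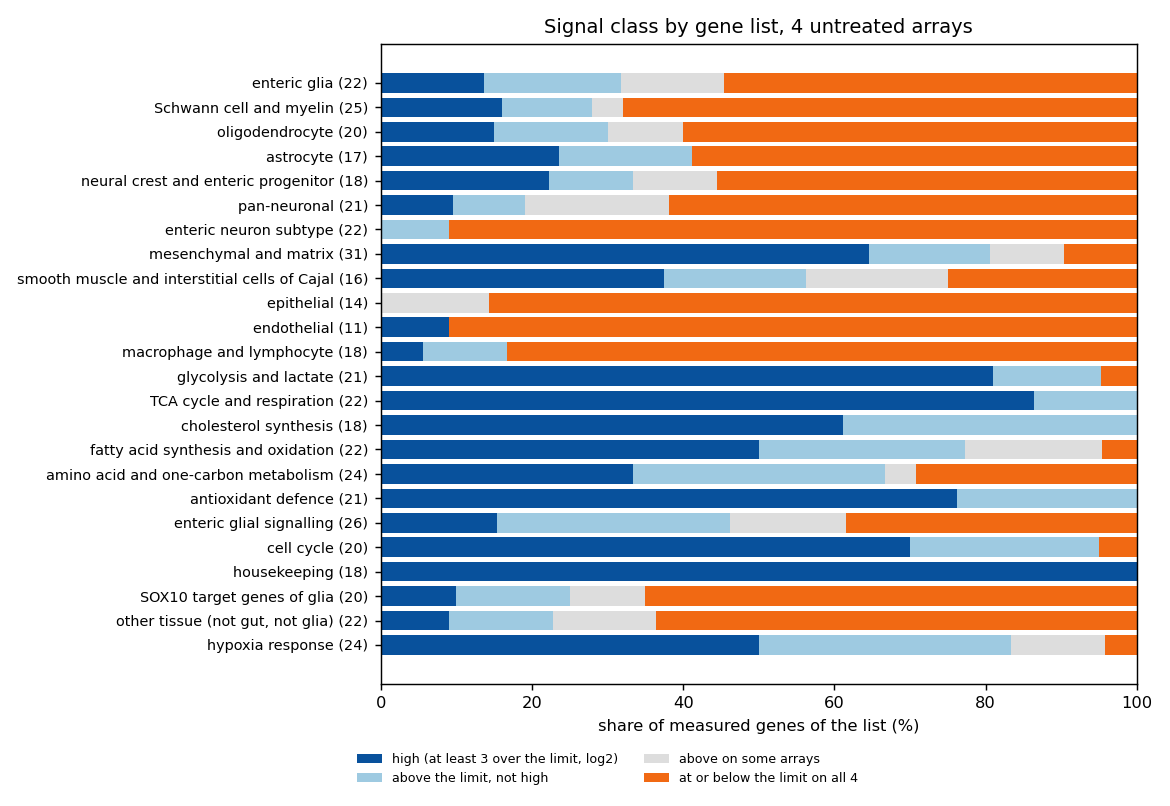
Share of the measured genes of each list (x axis, percent) that were high, above background, above it on some arrays, or at background on all 4 untreated arrays, with the number of measured genes in brackets. The lists of glia, neurons, epithelium and endothelium are mostly at background, whereas 25 of 31 mesenchymal and matrix genes and all 22 TCA cycle and respiration genes passed the limit.

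The mesenchymal and matrix list stood on the other side. Of its 31 genes, 25 (80.6%) were above background and 20 were high, beside 52.2% above background among all genes. Fn1, the fibronectin gene, gave 19.64, 19.63, 19.64 and 19.64, and Sparc, which encodes a collagen-binding matrix protein, 19.68, 19.68, 19.68 and 19.59. The actin gene Actb stood at 19.92 on all 4 arrays, and whether saturation flattens values at the top of the scale was not tested.

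The fibrillar collagen genes were high as well. Col1a1 gave 19.22, 19.30, 19.07 and 19.26, Col1a2 17.21, 17.50, 16.98 and 17.08, and Col3a1 16.84, 16.82, 16.80 and 16.98. Pdgfrb, a receptor of pericytes and fibroblasts, stood at 16.68, 16.85, 16.42 and 16.47. The 4 arrays lay less than 2-fold apart for each of these genes. Not all members were detected: the matrix genes Postn (5.33, 5.78, 4.94 and 5.40) and Lum (3.89, 4.26, 5.03 and 4.38) and the fibroblast protease gene Fap (4.87, 4.52, 4.63 and 3.97) were at background.

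Contractile genes of smooth muscle and myofibroblasts were split. Acta2, the smooth muscle actin gene, was high (15.15, 15.25, 16.03 and 15.94), as were Tagln, which encodes an actin-binding protein (14.68, 14.70, 15.66 and 15.69), and Cald1 (16.84, 16.81, 17.17 and 17.03). In contrast Myh11, the myosin of mature smooth muscle, was at background (5.62, 5.20, 5.38 and 5.97), and Des, the desmin gene, lay at the limit (6.35, 6.51, 6.83 and 6.59). Of the 16 genes of smooth muscle and interstitial cells of Cajal, 9 were above background, a share near the 52.2% of all genes.

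Markers of the other cell types of the gut wall were mostly at background. None of 14 epithelial genes passed the limit on all 4 arrays, with Epcam, an epithelial adhesion gene, between 3.38 and 4.47. Of 11 endothelial genes only Flt1, a receptor for vascular growth factor, did so (12.69, 12.52, 13.41 and 13.56), while Pecam1, Cdh5 and Kdr were at background. Of 18 macrophage and lymphocyte genes, 3 were above background, namely Cd14, a co-receptor for lipopolysaccharide (12.59, 12.88, 12.36 and 12.54), C1qa, a complement gene (9.28, 8.98, 9.38 and 9.47), and Cd68, a lysosomal gene (7.19, 7.44, 7.01 and 7.31). The leukocyte gene Ptprc (lowest 3.37, on SOX10 -dox replicate 2) and the receptor gene Csf1r (4.68, 4.23, 3.92 and 4.29) were at background. In a bulk sample, a few cells of another type and a low level in every cell cannot be told apart.

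Mediators that enteric glia are known to release or sense were in part detected. Of 26 such genes 12 were above background, a share near the 52.2% of all genes. The cytokine genes Tgfb1 (12.74, 12.65, 12.49 and 12.70) and Csf1 (12.01, 11.63, 12.36 and 12.73), the endothelin gene Edn1 (9.92, 10.53, 10.20 and 10.23) and Tlr4, the lipopolysaccharide receptor (10.05, 10.20, 9.88 and 9.94), were high. Gdnf, the growth factor for enteric neurons, was above background at 8.73, 8.18, 8.67 and 8.26. The inducible nitric oxide synthase gene Nos2 was at background (4.27, 3.70, 4.18 and 4.28).

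The lists of energy metabolism, sterol synthesis and antioxidant genes were nearly all detected. So were all 18 reference genes often taken as stable, every one of them high. All 22 TCA cycle and respiration genes, all 18 cholesterol synthesis genes and all 21 antioxidant genes were above background. So were 20 of 21 glycolysis and lactate genes, beside 52.2% of all genes. The exception was Slc16a3, the lactate exporter gene (5.51, 5.81, 5.60 and 5.14), whereas the related transporter gene Slc16a1 was high (11.56, 11.70, 11.09 and 11.54). Ldha, the lactate dehydrogenase subunit of glycolytic cells, stood at 15.90, 15.80, 16.03 and 15.84, and Cs, which encodes citrate synthase, at 14.47, 14.52, 13.86 and 14.15.

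Fatty acid genes were above background in 17 of 22 cases (77.3%) and amino acid genes in 16 of 24 (66.7%), beside 52.2% of all genes. Scd2, a fatty acid desaturase gene of brain and glia, gave 19.41, 19.41, 19.05 and 19.20. The extracellular superoxide dismutase gene Sod3 (17.73, 17.77, 16.98 and 16.99) and the catalase gene Cat (15.19, 15.27, 15.42 and 15.47) were high in the antioxidant list. Of 20 cell cycle genes, 19 were above background, beside the same 52.2%. The proliferation marker Mki67 stood at 15.76, 15.57, 15.42 and 15.50, and the cell cycle inhibitor gene Cdkn2a was at background (4.12, 3.86, 4.44 and 4.25).

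The next question was how the 2 untreated lines differ. A linear model of 8 arrays in 4 groups (limma) gave 0 of 23188 transcript clusters (0%) that differed at least 2-fold with an adjusted p under 0.05. Fewer transcript clusters passed an unadjusted p under 0.05 than that cut would pass on average with no difference between the lines. With 1 GFP -dox array, whose spread was taken from the SOX10 line, this does not show that the lines are alike. With GFP -dox and the doxycycline-treated GFP +dox fitted as 1 group, 1 transcript cluster differed from SOX10 -dox, that of Mdk. That group mixes untreated and treated cells.

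Mdk encodes midkine, a heparin-binding growth factor. Its signal was 7.26, 7.65 and 7.99 on the SOX10 -dox arrays and 9.68 on GFP -dox, and GFP +dox gave 9.90. The GFP array lay above all 3 SOX10 -dox arrays, which averaged 7.63 ± 0.36 (SD, n = 3). The limma difference (SOX10 -dox minus GFP -dox) was -2.05 ± 0.35 (SE, adjusted p = 0.678), and with both GFP arrays as 1 group it was -2.16 ± 0.28 (limma, adjusted p = 0.0422).

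Without a test, GFP -dox lay at least 2-fold above all 3 SOX10 -dox arrays at 35 transcript clusters (0.151%) and at least 2-fold below all 3 at 23 (0.0992%). Each SOX10 -dox array stood apart from the other 3 arrays at a like number: 29 above and 43 below for replicate 2, 33 and 40 for replicate 3, and 33 and 24 for replicate 4. GFP -dox thus stood apart at about as many transcript clusters as any single SOX10 -dox array. The counts rest on replicate 4 most of all, since without it 237 transcript clusters were above and 292 below the remaining SOX10 -dox arrays, against 61 and 46 without replicate 2 and 62 and 42 without replicate 3. Of the 35, 14 were at background on all 4 arrays, and of the 23, 12. GFP +dox lay on the same side of the SOX10 -dox arrays in 27 of the 35 and in 11 of the 23.

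Among the genes highest on GFP -dox, Krt15, a keratin of epithelial basal cells, gave 6.30, 5.99, 8.25 and 9.26. Podxl, the gene of the surface sialomucin podocalyxin, gave 8.51, 8.68, 9.81 and 11.13. Pkhd1l1, a gene for a large membrane protein, gave 8.58, 8.11, 9.36 and 10.89. In all 3, SOX10 -dox replicate 4 came nearest to GFP -dox, as it did in 20 of the 35.

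Agrn, which encodes the matrix proteoglycan agrin, showed the same order with 8.64, 8.65, 9.38 and 10.57. So did Slc16a4, a monocarboxylate transporter gene, at 6.69, 6.29, 7.25 and 8.86, and Csdc2, an RNA-binding protein gene, at 6.36, 6.06, 6.83 and 7.94. The list member Thy1, a surface glycoprotein gene of fibroblasts and neurons, was above its background limit on SOX10 -dox replicate 4 and GFP -dox only (6.13, 6.45, 6.62 and 7.67). The remaining genes named by size, Pbx4, Enpp3, Sugp2, Aif1 and Zmynd12, were at background on the SOX10 -dox arrays.

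Gfra1, the co-receptor for GDNF, was lower on GFP -dox. It gave 8.08, 7.53, 7.07 and 5.45, above background on all 3 SOX10 -dox arrays and at background on GFP -dox. The limma difference was 2.11 ± 0.38 (SE, adjusted p = 0.678), which is not a measured fold because the GFP -dox signal was at background, and GFP +dox stood at 6.40. The 3 SOX10 +dox arrays of replicates 2 to 4 lay at 6.14, 6.19 and 6.26, near the GFP arrays.

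Lower on GFP -dox were also Pimreg, a gene of dividing cells (7.48, 7.12, 6.32 and 5.31), the secreted protein gene Tafa5 (8.26, 8.31, 7.69 and 6.48), the fatty acid elongase gene Elovl4 (8.07, 8.27, 7.68 and 6.60) and Amd1, which acts in polyamine synthesis (9.40, 9.02, 9.12 and 7.83). Replicate 4 was the SOX10 -dox array nearest to GFP -dox in 16 of the 23. Kgd4, which encodes a subunit of the oxoglutarate dehydrogenase complex, gave 7.92, 7.97, 7.91 and 6.62. On GFP +dox, Pimreg (5.39) and Kgd4 (7.49) lay below the SOX10 -dox arrays, and Tafa5 (7.67) and Amd1 (8.94) only just. Elovl4 (7.86) lay inside their range. Fabp2, Defa9 and Adh7 were at background throughout.

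**Figure D3:**
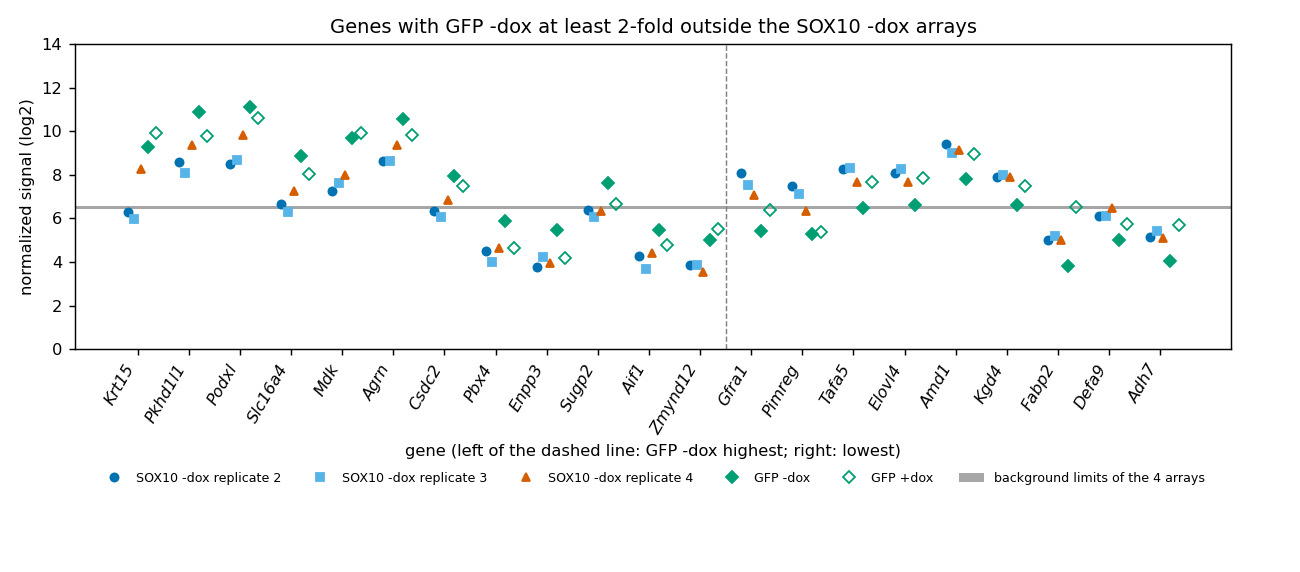
Normalized log2 signal (y axis) of the named genes (x axis) for which GFP -dox lay at least 2-fold above (left of the dashed line) or below (right) the 3 SOX10 -dox arrays, with GFP +dox as an open symbol. In Krt15, Podxl and Pkhd1l1 the triangle of SOX10 -dox replicate 4 lies between replicates 2 and 3 and GFP -dox.

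The arrays were then compared in pairs. SOX10 -dox replicates 2 and 3 differed at least 2-fold at 645 transcript clusters (2.78%), and replicate 4 and GFP -dox at 477 (2.06%). The 4 pairs that crossed these couples differed at 1485 (replicates 2 and 4), 1325 (replicate 2 and GFP -dox), 1318 (replicates 3 and 4) and 1236 (replicate 3 and GFP -dox). SOX10 -dox replicate 4 was therefore nearer to the array of the other line than to the 2 arrays of its own line. The labels give no batch that joins these arrays.

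**Figure D4:**
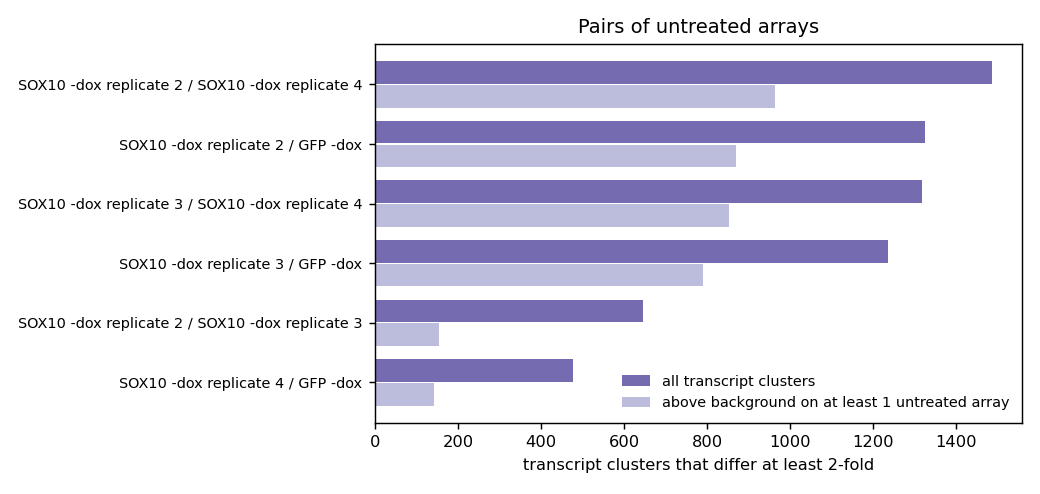
Number of transcript clusters that differed at least 2-fold (x axis) between the 2 arrays of each pair of untreated arrays, for all transcript clusters and for those above background on at least 1 array. The pairs of replicates 2 and 3 (645) and of replicate 4 and GFP -dox (477) have the shortest bars.

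Control probe sets moved with this division. The median of the control probe sets named RG1-neg was 7.43, 7.45, 8.02 and 7.94, and that of RG1-pos 9.99, 9.90, 9.56 and 9.72, so that their distance was 2.56, 2.45, 1.54 and 1.78. The sources used here do not say what these controls measure, and their part in the differences between arrays was not tested. Since the couples were seen in the data, they are described by array and were not tested as groups.

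SOX10 -dox replicate 4 lay at least 2-fold above both replicates 2 and 3 at 230 transcript clusters (0.992%) and below both at 352 (1.52%). GFP -dox was on the same side in 211 of the 230 and in 340 of the 352. GFP -dox itself lay at least 2-fold above both replicates 2 and 3 at 237 (1.02%) and below both at 292 (1.26%). The metabolic gene lists were unevenly touched by this. Cholesterol synthesis had 15 of 18 genes at least 2-fold lower on replicate 4 than on replicates 2 and 3, and 15 of 18 on GFP -dox. All 18 were lower on both replicate 4 and GFP -dox than on both replicates 2 and 3, where 24.3% of all transcript clusters were.

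Cholesterol is made from acetyl-CoA through mevalonate, squalene and lanosterol, and the genes of the route are switched on together by the transcription factor SREBP2 when sterols are scarce. The median difference of replicate 4 from the mean of replicates 2 and 3 over the 18 genes was -1.71 (log2), and that of GFP -dox -1.62. Over all transcript clusters these medians were 0.015 and 0.0076. Replicates 2 and 3 differed by a median of 0.16 over the 18 genes, and GFP -dox and replicate 4 by 0.20.

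In the early steps, Idi1, the isomerase of isoprenoid units, gave 13.95, 13.66, 12.08 and 12.08, and Fdps, which joins these units, 13.78, 13.47, 11.96 and 12.17. Sqle, which encodes the squalene epoxidase, a rate-limiting enzyme, stood at 14.21, 14.27, 11.99 and 12.23. In each the 2 higher values were those of replicates 2 and 3. Among the later steps, Cyp51, the lanosterol demethylase gene, gave 15.46, 15.44, 13.38 and 13.48, and Msmo1, a sterol oxidase gene, 14.94, 14.70, 12.79 and 12.90.

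The largest differences among named genes below replicates 2 and 3 included Hsd17b7, a sterol ketoreductase gene (12.67, 12.77, 9.94 and 10.74), Tm7sf2, a sterol reductase gene (11.31, 10.62, 8.27 and 9.04), and Dhcr7, which encodes the last enzyme of the route (11.85, 11.45, 9.16 and 9.47). Insig1, which holds SREBP in the endoplasmic reticulum and is itself one of its targets, gave 16.03 on replicate 3 and nearly the same on replicate 2, against 13.72 on replicate 4 and 13.85 on GFP -dox. The 3 genes short of 2-fold on replicate 4 were Mvk, Pmvk and Ebp. Srebf2, which encodes SREBP2, passed it on replicate 4 but not on GFP -dox (11.70, 11.39, 10.15 and 11.01).

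In the treated cells of the same line, the sterol genes showed the same split by replicate number. On SOX10 +dox replicate 4, 14 of the 18 genes were at least 2-fold lower than on SOX10 +dox replicates 2 and 3. That was so for 452 of all transcript clusters (1.95%). The distance between RG1-pos and RG1-neg was 2.69, 2.36 and 1.43 on these arrays. On replicate 1 of SOX10 -dox and of SOX10 +dox it was 1.97 and 1.75, near the 1.78 of GFP -dox. Insig1 (15.36 and 15.31) and Sqle (13.76 and 13.53) were there nearer to replicates 2 and 3. On GFP +dox the distance was 1.98 and Insig1 gave 13.76. Whether the distance goes with the signals of the sterol genes was not tested.

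The promoters of the 3 sterol enzyme genes with the largest differences are shown because their signals moved together. They are the 250 bases before the RefSeq gene start (rat build GRCr8), 5′ to 3′ on the strand of the gene, with CCAAT or its reverse ATTGG, the motif of the factor NF-Y that works beside SREBP, in capitals. Hsd17b7 lies on the minus strand at chr13:84722755-84723004, Tm7sf2 on the minus strand at chr1:212789542-212789791 and Dhcr7 on the plus strand at chr1:208444184-208444433.
Hsd17b7: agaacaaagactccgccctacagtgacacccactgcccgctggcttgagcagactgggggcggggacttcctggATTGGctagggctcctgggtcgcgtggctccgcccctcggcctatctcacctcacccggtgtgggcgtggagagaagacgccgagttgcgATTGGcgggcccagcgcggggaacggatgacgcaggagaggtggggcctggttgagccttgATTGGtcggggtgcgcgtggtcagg
Tm7sf2: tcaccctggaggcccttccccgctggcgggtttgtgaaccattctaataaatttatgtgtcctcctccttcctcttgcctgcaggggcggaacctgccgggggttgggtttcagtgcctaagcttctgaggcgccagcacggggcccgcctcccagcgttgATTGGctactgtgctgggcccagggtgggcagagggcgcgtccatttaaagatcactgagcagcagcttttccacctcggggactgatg
Dhcr7: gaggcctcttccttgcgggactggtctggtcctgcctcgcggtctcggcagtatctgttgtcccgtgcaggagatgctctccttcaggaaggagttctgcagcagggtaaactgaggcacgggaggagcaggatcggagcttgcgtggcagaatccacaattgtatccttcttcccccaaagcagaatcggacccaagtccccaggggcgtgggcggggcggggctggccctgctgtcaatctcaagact

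The motif occurred 3 times before Hsd17b7, 1 time before Tm7sf2 and not before Dhcr7. Of the 18 cholesterol synthesis genes 15 had a promoter in the table, and 13 of these (86.7%) held CCAAT on either strand, as did 34.3% of 27457 rat promoters of the same length. A sterol element searched as TCACNCCAC (reverse GTGGNGTGA) was in 0 of the 15 windows and in 0.976% of all. These are matches of letters in a window and not sites.

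Other lipid genes showed the same order of arrays. Of 22 fatty acid genes, 6 were at least 2-fold lower on replicate 4 than on replicates 2 and 3, beside 1.52% of all transcript clusters. These were Fasn, Acly, Acaca, Scd, Elovl1 and Elovl5. Fasn, the fatty acid synthase gene, gave 12.42, 12.48, 10.57 and 10.87. Scd, a desaturase gene, gave 15.95, 15.61, 13.68 and 13.66, and Acly, which supplies cytosolic acetyl-CoA, 14.60, 14.48, 12.79 and 12.95.

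**Figure D5:**
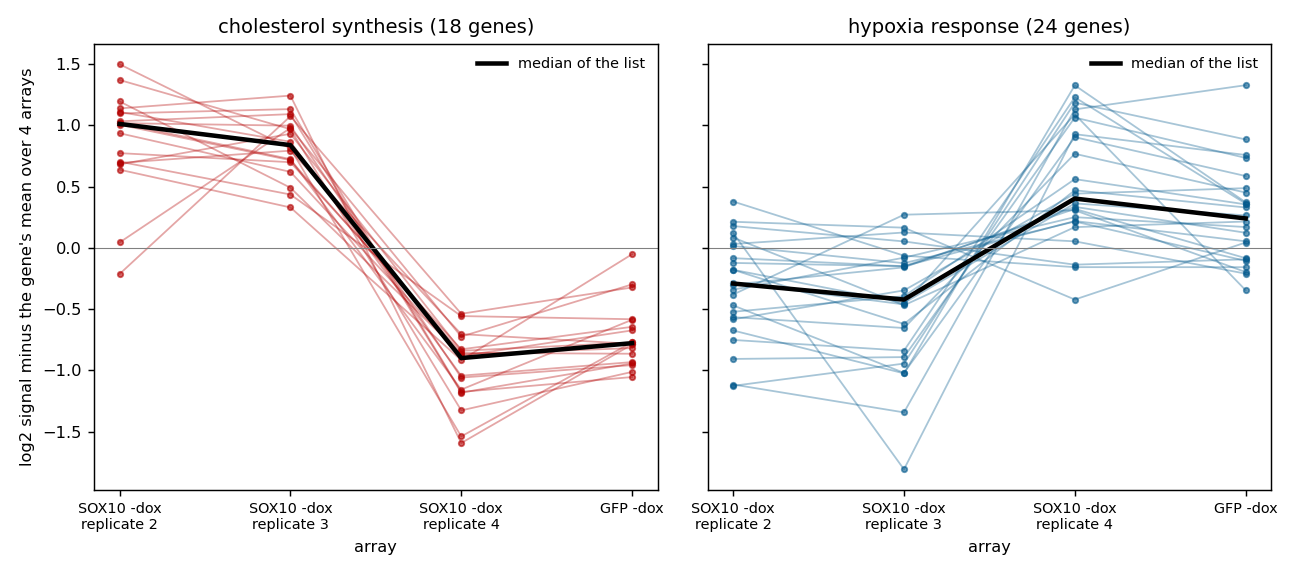
Log2 signal of each gene minus its mean over the 4 untreated arrays (y axis) by array (x axis), for 18 cholesterol synthesis genes and 24 hypoxia response genes, with the list median in black. All 18 cholesterol genes are lower on SOX10 -dox replicate 4 and GFP -dox than on replicates 2 and 3, where 24.3% of all transcript clusters are, and 16 of the 24 hypoxia genes are higher, where 24.4% of all are.

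Genes of respiration and the cell cycle were lower by less. In the TCA cycle and respiration list 20 of 22 genes were lower on both replicate 4 and GFP -dox than on both replicates 2 and 3, where 24.3% of all transcript clusters were. Only Idh3g, Mdh2 and Pdhb were lower by 2-fold on replicate 4, beside 1.52% of all transcript clusters. The order was not particular to respiration. It was also that of 13 of 18 reference genes often taken as stable, 14 of 21 antioxidant genes and 15 of 24 amino acid genes. Mdh2, the mitochondrial malate dehydrogenase gene, gave 13.12, 13.15, 11.74 and 11.92. Of 20 cell cycle genes, 4 passed 2-fold on replicate 4 (Ccna2, Plk1, Pcna and Rrm2), beside the same 1.52%. Pcna, the clamp of DNA polymerase, gave 13.83, 13.80, 12.64 and 11.91.

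Asns, Shmt2 and Mthfd2 of 24 amino acid and folate genes and Nqo1, Hmox1 and Mgst1 of 21 antioxidant genes were at least 2-fold lower on replicate 4 as well, beside 1.52% of all transcript clusters. Nqo1, a quinone reductase gene, gave 9.07, 9.47, 7.01 and 6.91, and Asns, the asparagine synthetase gene, 12.64, 12.70, 11.12 and 10.95. The largest difference of all named genes was that of Mt1, a metallothionein gene, at 11.64, 11.11, 7.91 and 7.64. Among 18 reference genes often taken as stable, the ribosomal Rps6 (14.06, 14.09, 13.04 and 13.22) and the purine salvage gene Hprt1 (12.69, 12.54, 11.14 and 11.15) also passed 2-fold on replicate 4. Another 1 of the 18 was at least 2-fold higher there.

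Genes in the opposite direction included several known to respond to low oxygen. Car9, which encodes a carbonic anhydrase, gave 11.19, 10.96, 13.43 and 13.63, and Ero1a, an oxidase of the endoplasmic reticulum, 12.12, 12.30, 14.43 and 14.13. Stc1, the stanniocalcin gene, gave 6.66, 6.31, 8.67 and 7.71. After these were seen, a list of 26 hypoxia genes was drawn up, of which 24 were measured. On replicate 4, 8 of the 24 were at least 2-fold higher than on replicates 2 and 3 (0.992% of all transcript clusters), and on GFP -dox 7 (1.02% of all). In the treated cells, 2 of the 24 were at least 2-fold higher on SOX10 +dox replicate 4 than on SOX10 +dox replicates 2 and 3. The share of all transcript clusters was not counted for this. Since genes of the list had been seen to be higher, these counts are a description only.

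Slc2a3, a glucose transporter gene, gave 9.56, 9.57, 11.53 and 11.20, and Pdk1, which slows the entry of pyruvate into the TCA cycle, 11.78, 11.23, 13.15 and 12.83. Of the 21 glycolysis genes, Tpi1 (13.82, 13.49, 15.11 and 15.05), Pgk1 and Pdk1 passed 2-fold on replicate 4, beside 0.992% of all transcript clusters. Tpi1, Pdk1 and the phosphofructokinase gene Pfkl (11.78, 11.80, 12.56 and 12.99) did so on GFP -dox, beside 1.02% of all. On SOX10 +dox replicate 4, 0 of the 21 were at least 2-fold higher than on SOX10 +dox replicates 2 and 3. Vegfa, a growth factor gene induced by low oxygen, was high on all 4 and differed by less than 2-fold (14.44, 14.58, 15.08 and 14.87). ACGTG, the core of the hypoxia element (reverse CACGT), was in 9 of 19 promoters of the list (47.4%) and in 16.9% of all. It was not found before Car9, Pdk1 or Vegfa. These too are matches of letters and not sites, in a list drawn up after some of its genes were seen to be higher.

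Of the 31 mesenchymal and matrix genes, 2 passed 2-fold on replicate 4 and 4 on GFP -dox. Cd44, a hyaluronan receptor gene (12.98, 13.10, 11.72 and 11.81), and Ccn2, a matricellular gene (15.33, 15.08, 13.66 and 13.36), were at least 2-fold lower on replicate 4, beside 1.52% of all transcript clusters, and none was higher by 2-fold. On GFP -dox Cd44, Ccn2 and the tenascin gene Tnc (10.19, 10.36, 9.50 and 9.07) were lower than on replicates 2 and 3 by 2-fold and Thy1 was higher. Of all transcript clusters, 1.26% were lower and 1.02% higher in this way. Small differences among the genes at the top of the scale, such as Fn1 and Sparc, are not read as stability. Mfap4, a microfibril gene outside the list, was higher on replicate 4 (7.41, 6.68, 10.10 and 8.85), as were Fam13a (8.08, 8.32, 10.65 and 10.19) and Olfml2a, an extracellular protein gene (7.73, 8.34, 10.25 and 10.88). In the glial lists Entpd2 was past 2-fold on replicate 4, and no Schwann cell, oligodendrocyte or astrocyte gene was. On GFP -dox, Apoe and the astrocyte genes Aldoc, a glycolytic aldolase (6.82, 6.89, 7.37 and 8.15), and Atp1b2, a sodium pump subunit (4.07, 4.04, 4.98 and 5.65, at background on all 4), were at least 2-fold higher than on replicates 2 and 3, and Gfra1 was lower. Beside these stand the same 1.02% higher and 1.26% lower of all transcript clusters.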

How the data were processed

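Total RNA of JUG2 cells was hybridized to Clariom S arrays, which the authors analysed in the Transcriptome Analysis Console. The deposited values are normalized log2 signals per probe set. Summarization and normalization are not given in the sources used here, and no scanner files were used. All 10 sample columns were matched to their labels, and 1646 control probe sets were kept out of counts and tests. The platform table named 15049 of 23188 transcript clusters, whose Entrez IDs all matched the RefSeq gene table, and 8139 had no symbol here and were not analysed by gene. Where a gene had more than 1 transcript cluster, that of the highest mean signal stood for it. A replicate is an array, and precision is limited by how few arrays there are.

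The lines were compared with limma 3.58.1 in R 4.3.3, in a model of the 4 groups without replicate 1 of either SOX10 group (8 arrays), with Benjamini-Hochberg adjustment over all 23188 transcript clusters. The step was tested on simulated data. Background limits, counts and pairs were computed in Python 3.11.15 without a test. Promoters were the first entry per gene in the RefSeq table.

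Genes for naming came from the first 4 measured members of each of 23 gene lists. They also came from up to 6 members per list with the highest margin over the limit. Further sources were up to 12 genes each way with GFP -dox outside the SOX10 -dox arrays, and the 6 largest differences each way of replicate 4. List members outside the range were the last source. Not every gene that these rules allow is named, and some first members at background or near the limit are left out. Other genes in the text were chosen after their values were seen. The members and lists were chosen with earlier results of these data known, and the hypoxia list and the comparison of replicate 4 within lists were added after the values were seen. Alternatives covered the arrays fitted, quantile normalization, array weights, a mean-variance trend, filters, folds, background limits, the transcript cluster per gene, the replicate number as a block (added after the values were seen) and leaving out each replicate. Some genes the study names are not reported here.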

Additional observations from a re-analysis of the deposited data

Results flagged for a closer look

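The array labelled SOX10 -dox replicate 1, used in no count or test above, gave a Sox10 signal of 12.90 where the other untreated arrays lay between 5.70 and 6.43 and SOX10 +dox replicates 2 to 4 gave 12.93, 12.62 and 13.02. Its signal was 6.74 on the first SOX10 +dox replicate. On SOX10 -dox replicate 1, 10 genes were high that were at background on the 4 untreated arrays. Beside Sox10, these included Enpp2 (12.62), Sox6 (10.02), Mbp (9.62) and Apod (9.57). It differed at least 2-fold from SOX10 -dox replicates 2, 3 and 4 and GFP -dox at 2333, 2414, 2697 and 2503 transcript clusters, more than any of these arrays differed from each other.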

How the results depend on the processing

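With 1 GFP -dox array the comparison of the lines had little power, and no alternative limma setting gave more than 1 call, that of Mdk with both GFP arrays as 1 group (smallest adjusted p over the settings 0.0422 to 1). The untreated groups share no replicate number in the fit, but SOX10 -dox and +dox do. With the replicate number as a block, added after the values were seen (estimated correlation 0.259), limma gave 0 calls and a smallest adjusted p of 0.568. The 58 transcript clusters with GFP -dox at least 2-fold outside the SOX10 -dox arrays became 32 among those above background on at least 1 array, 594 at 1.5-fold, 0 at 4-fold and 38 with GFP +dox required on the same side. Leaving out 1 SOX10 -dox replicate gave 104 to 529, the highest without replicate 4 (107 without replicate 2). Above the highest antigenomic control, 4 instead of 7 enteric glial genes passed, 3 instead of 6 of oligodendrocytes, 3 instead of 5 SOX10 targets, 0 instead of 2 of enteric neurons and 3 instead of 5 of other tissues. The 99th percentile gave 3 for oligodendrocytes, 1 for enteric neurons and 3 for other tissues, and the 90th gave 2 instead of 1 endothelial gene. Limited to transcript clusters above background on at least 1 array, the pairs differed at 155 (replicates 2 and 3), 964 (2 and 4), 870 (2 and GFP -dox), 852 (3 and 4), 789 (3 and GFP -dox) and 141 (replicate 4 and GFP -dox), in the same order as over all. The cause of these shifts, beyond the smaller sets compared, was not tested. Over the alternatives for the results treated as main ones, 78 stayed within 1.5 times the value given, or at 0, and 15 did not. For the other results 166 stayed and 21 did not.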
